A study of Mus musculus with 743 samples.

Results

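Semaphorins are guidance proteins that growing axons and migrating cells read from their surroundings. Class 3 members are secreted and bind a neuropilin, which has no signaling domain of its own and works in a complex with a plexin, while members of the other vertebrate classes are held in the membrane and bind plexins directly. Plexins pass the signal on to small GTPases and the actin cytoskeleton, and in peripheral nerve this family takes part in axon guidance and in the regrowth of nerve after injury. Here, 10 genes of the family were followed among the 25700 genes counted in Schwann cells (SCs) of newborn mouse sciatic nerve. The 7 ligands were Sema3b, Sema3c, Sema3e, Sema4c, Sema4f, Sema5a and Sema6a, and the 3 receptors were Nrp1, Nrp2 and Plxnb1. The rule lists the genes by name, and the list was drawn up with earlier results of these data known.

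Cells were taken at postnatal day 1 from C57bl/6J mice that carried a Cre transgene of the SC lineage, ReYFP and βAct-DsRed, and they were sorted for eYFP, 1 per well, into 2 plates for the Smart-seq2 protocol. Cre switches on the eYFP reporter for good, so the label marks the lineage and not a stage, and every class carried the same alleles. Each plate held cells of 2 pooled mice, a male and a female. The labels do not give the mouse of a well, and wells were not divided by sex-linked genes. The plate was therefore taken as the replicate (n = 2). Of the 743 wells, 621 had at least 1500 detected genes and were kept.

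The kept cells were divided by the study's marker genes. Cells were called cycling when the proliferation genes Mki67 and Top2a reached 50 CPM together (reads of a gene scaled to 1000000 reads per cell or sum), which held for 53 cells of plate 1 and 57 cells of plate 2. Of the remaining cells, 59 and 60 reached 50 CPM of Ncmap, a gene of myelinating SCs, and were called promyelinating. The other 175 and 217 cells had little or no read of the 3 genes, and 364 of these 392 had none. Only 5 kept cells had a summed Mki67 and Top2a level of 25 to under 50 CPM and 4 a level of 50 to under 100 CPM, and for Ncmap these numbers were 4 and 5. Markers that the division did not use followed the same classes. A list of 7 other proliferation genes summed to 4773 and 4338 CPM in cycling cells against 29.5 to 90.3 CPM in the remaining classes, and 10 myelination genes summed to 17862 and 17881 CPM in promyelinating cells against 3786 to 5496 CPM.

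Reads per cell had medians of 701288 to 950150 over the classes and plates, with 2775 and 2819 detected genes in the median other cell against 3425 to 3690 in the cycling and promyelinating cells. A read of the SC genes Sox10, S100b or Erbb3 was found in 604 of the 621 kept cells (97.3%). Endothelial Cdh5 and Kdr, fibroblast-like Pdgfra, mural Acta2 and Rgs5, and immune Ptprc and Tyrobp were at 0 in all classes, and the summed endothelial list of 5 genes stayed at or under 2.91 CPM. The other lists were not empty. The 3 fibroblast-like genes summed to 26.6 and 19.9 CPM in promyelinating, 36.7 and 10.5 CPM in other and 0 and 0.577 CPM in cycling cells, nearly all of it Dcn. The 4 mural genes summed to 24.8 to 56.8 CPM, with Pdgfrb at 0 in cycling cells against 13.8 to 43.7 CPM in the remaining sums (edgeR adjusted p = 0.00976 for cycling against other cells). Pdgfrb passed the filter on low counts only through those remaining sums, so this test is no support for a difference. The 4 immune genes summed to 2.77 to 20.7 CPM, mostly Csf1r, and the 3 perineurial genes to 32.6 to 67.4 CPM. The part of these genes in the differences between classes was not tested. Genes of the response to cell dissociation did differ, since 8 of them summed to 2205 and 2418 CPM in promyelinating cells, to 4726 and 7160 CPM in cycling cells and to 5842 and 6380 CPM in other cells. Their part in the differences given below was not tested, and neither was that of the number of detected genes beyond the thinned values.

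Sema3b and Nrp2 were the most abundant ligand and receptor of the 10 genes. Per kilobase of exon and over all kept cells, Sema3b stood at 62.4 and 55.1 CPM per kb on the 2 plates, and Nrp2 followed at 10.96 and 13.7 CPM per kb. Sema3c (4.59 and 4.57), Sema6a (5.59 and 3.32) and Nrp1 (3.59 and 4.16 CPM per kb) came next, and within this trio neighboring genes were not separated on both plates. Plxnb1 lay below them at 2.22 and 2.48 CPM per kb. Sema3e, Sema4c and Sema5a had 1.20 CPM per kb or less and overlapped in that order. No read of Sema4f was found in any well, and 0 of 621 cells allows a share of up to 0.483% of cells with a read, or a level of 0.00567 CPM from 3 reads, for counting error only. Altogether 514 cells (82.8%) had a read of at least 1 of the ligands, 430 cells (69.2%) of a receptor and 367 cells of both, while 44 cells had no read of any member.

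**Figure D1:**
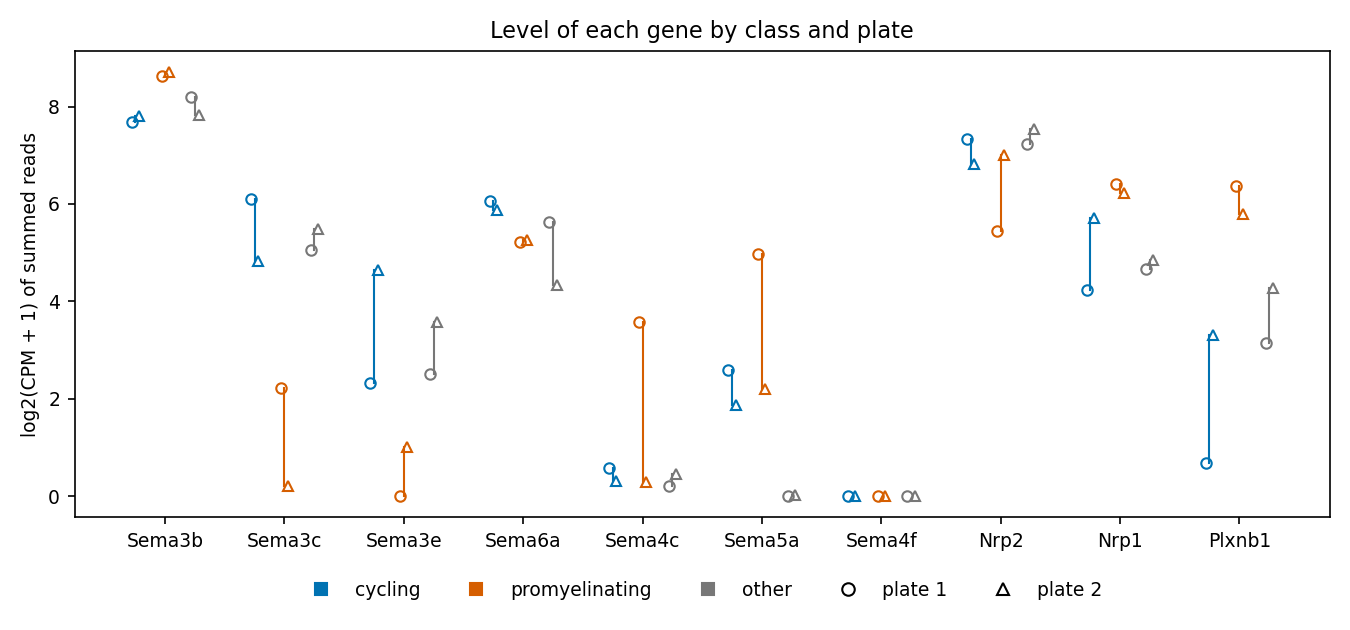
Level of each member in the reads summed over the cells of a class, as log2(CPM + 1), with a circle for plate 1, a triangle for plate 2 and a line between them. Values are not divided by gene length and are to be compared within a gene. Sema3b, Sema5a, Nrp1 and Plxnb1 were higher in promyelinating than in other cells on both plates, and Sema3c, Sema3e and Nrp2 were lower. Sema5a and Sema3e rested on few cells, and Sema4f was at 0 throughout.

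The first question was whether the ligands differ between the classes. Sema3b encodes a secreted class 3 semaphorin, and its gene lies on the minus strand of chromosome 9 (chr9:107597674-107609229, GRCm38). It was measured at 396 and 418 CPM in promyelinating cells, at 205 and 224 CPM in cycling cells and at 294 and 227 CPM in other cells. Both promyelinating sums lay above every other sum, and the cycling and other sums of plate 2 were nearly equal. A read was found in 86.4% and 93.3% of promyelinating cells, compared with 67.9% and 68.4% of cycling and 62.3% and 63.1% of other cells. With every cell thinned to 50000 reads, the shares were 83.1% and 86.2%, 65.4% and 61.4%, and 56.6% and 58.6%, so the promyelinating cells stayed highest at equal depth. The log2 fold change of promyelinating against other cells was 0.72 (95% interval 0.21 to 1.24) and missed the threshold after adjustment over the 13292 genes tested (edgeR, adjusted p = 0.224). Cycling against promyelinating cells had a log2 fold change of -0.87 (95% interval -1.39 to -0.36). There the adjusted p was 0.0639 without a plate term and 0.0444 with the plate as a block.

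Sema3c, another secreted class 3 ligand (plus strand, chr5:17574281-17730268), had the opposite distribution. It stood at 67.5 and 27.4 CPM in cycling cells and at 32.0 and 43.8 CPM in other cells, but at only 3.66 and 0.154 CPM in promyelinating cells. Reads were found in 4 of 59 and 2 of 60 promyelinating cells, and 1 of the 4 cells held 84.8% of the Sema3c reads of its sum. In cycling cells 37.7% and 28.1% had a read, and in other cells 20.6% and 21.7%. The cycling and other sums overlapped, and both promyelinating sums lay below them all. Promyelinating against other cells gave a log2 fold change of -4.22 (95% interval -7.13 to -1.32, edgeR adjusted p = 0.207), and cycling against promyelinating cells gave 4.70 (95% interval 1.72 to 7.67, adjusted p = 0.0808). With the plate as a block, the latter passed at an adjusted p of 0.0494 and a log2 fold change of 5.21. Both p-values moved when single sums were left out. Without promyelinating plate 1, which holds the single high cell, the adjusted p was 0.0345 and 0.0158, in fits where the lone promyelinating sum of 8 reads is assumed to vary like the other classes. Without promyelinating plate 2 it was 0.218 and 0.0866, and leaving out any other sum gave 0.240 to 0.520 and 0.112 to 0.214.

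Sema6a, a transmembrane class 6 semaphorin that binds class A plexins, varied less. Its level was 65.7 and 57.5 CPM in cycling cells, 36.1 and 37.3 CPM in promyelinating cells and 48.4 and 19.3 CPM in other cells. Cycling sums were the highest, and promyelinating sums fell between those of the other cells. In each of the sums, 3 cells held 51.8% to 73.5% of the Sema6a reads. None of its 3 comparisons reached an unadjusted p of 0.05 in edgeR, and cycling against other cells gave a log2 fold change of 0.99 with a 95% interval of -0.26 to 2.23 (adjusted p = 0.592). A read was present in 35.8% and 33.3% of cycling cells, 25.4% and 26.7% of promyelinating cells and 22.3% and 19.8% of other cells. These shares came to 23.1% and 21.1%, 23.7% and 18.97%, and 15.4% and 12.6% after thinning, where cycling and promyelinating cells overlapped.

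The remaining ligands rested on few cells. Sema3e, a class 3 member known for binding Plxnd1 without a neuropilin, had 4.02 and 23.9 CPM in cycling cells, 0 and 1.02 CPM in promyelinating cells and 4.70 and 10.9 CPM in other cells. On plate 2 all its reads in cycling cells came from 3 cells, and over both plates it was found in 36 cells. Sema4c, a membrane-bound class 4 semaphorin, was likewise found in 36 cells and stayed under 0.5 CPM in all sums except promyelinating plate 1, where 1 cell held 99.1% of the reads and raised the sum to 10.95 CPM. The exons of Sema4c overlap a gene on the opposite strand, D430040D24Rik, and the reads of the pair cannot be told apart if strand was not used in counting, which is not stated.

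Sema5a, a membrane-bound class 5 semaphorin with thrombospondin repeats, was found in 9 of 59 promyelinating cells of plate 1 and 1 of 60 of plate 2, in 1 cycling cell per plate, and in 1 of the 392 other cells. Its levels were 30.4 and 3.57 CPM in promyelinating, 5.01 and 2.66 CPM in cycling and 0 and 0.0116 CPM in other cells. The other cells contributed 2 reads in all, both from the same cell. Over both plates its level in promyelinating cells was 2826 times that in other cells, with a counting interval of 781 to 23354 that covers counting error only, since reads of 1 cell are not independent molecules. This value rests on plate 1, where other cells had 0 reads, and on plate 2 alone the ratio was 309 (84.3 to 2569). The gene passed the filter on low counts only through the cycling and promyelinating sums, so its tests against other cells are no support for a difference.

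**Figure D2:**
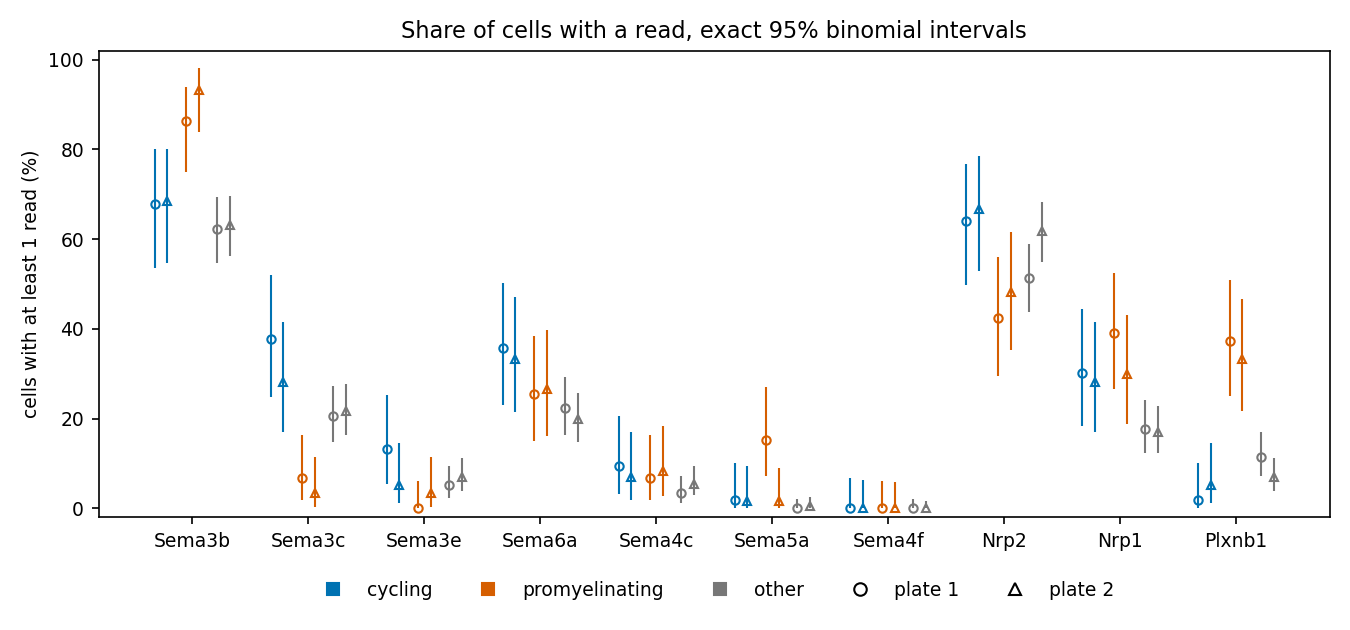
Share of cells with at least 1 read of each member, in percent, by class and plate, with exact (Clopper-Pearson) 95% binomial intervals that cover counting error only. On each plate the promyelinating class stood highest for Sema3b (86.4% and 93.3%), Plxnb1 (37.3% and 33.3%) and Nrp1 (39.0% and 30.0%). It stood lowest for Sema3c (6.78% and 3.33%), Sema3e (0% and 3.33%) and Nrp2 (42.4% and 48.3%).

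The receptors were compared next. Nrp1, on chromosome 8, and Nrp2, on chromosome 1 (plus strand, chr1:62703285-62818695), are the only neuropilins of the mouse, and besides class 3 semaphorins both bind members of the VEGF family. Nrp1 was at 84.1 and 73.7 CPM in promyelinating cells, 17.9 and 51.5 CPM in cycling cells and 24.3 and 27.9 CPM in other cells. The promyelinating sums did not overlap those of either class. On cycling plate 2, 1 cell held 51.2% of the Nrp1 reads. A read of Nrp1 was found in 39.0% and 30.0% of promyelinating, 30.2% and 28.1% of cycling and 17.7% and 17.1% of other cells. Promyelinating against other cells gave a log2 fold change of 1.68 (95% interval 0.40 to 2.95, edgeR adjusted p = 0.272), and the ratio was above 1 on both plates.

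Nrp2 was most abundant in the cycling and other cells of plate 1 and the other cells of plate 2. It was at 42.7 and 127 CPM in promyelinating cells, 161 and 113 CPM in cycling cells and 149 and 186 CPM in other cells. Both promyelinating sums lay below both sums of other cells, while they overlapped with the cycling sums. Promyelinating against other cells had a log2 fold change of -0.90 (95% interval -2.02 to 0.21, edgeR adjusted p = 0.561). Cells with a read made up 64.2% and 66.7% of the cycling, 42.4% and 48.3% of the promyelinating and 51.4% and 61.8% of the other class.

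The balance of both neuropilins was compared as the share of their reads that Nrp2 held. This share was 86.0% and 87.0% in other cells and 90.0% and 68.6% in cycling cells, but 33.7% and 63.2% in promyelinating cells. Each promyelinating plate lay below each plate of the other classes. The 68.6% of cycling plate 2 rests in part on 1 cell with 51.2% of the Nrp1 reads of that sum. With 2 plates per class an exact permutation test cannot give a two-sided p under 0.333, and no test was run on the share. Among single cells of the promyelinating class, 23.7% and 11.7% had a read of Nrp1 without Nrp2, 27.1% and 30.0% of Nrp2 without Nrp1 and 15.3% and 18.3% of both. In other cells the share with Nrp1 alone was 8.57% and 5.53%, and that with Nrp2 alone 42.3% and 50.2%.

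**Figure D3:**
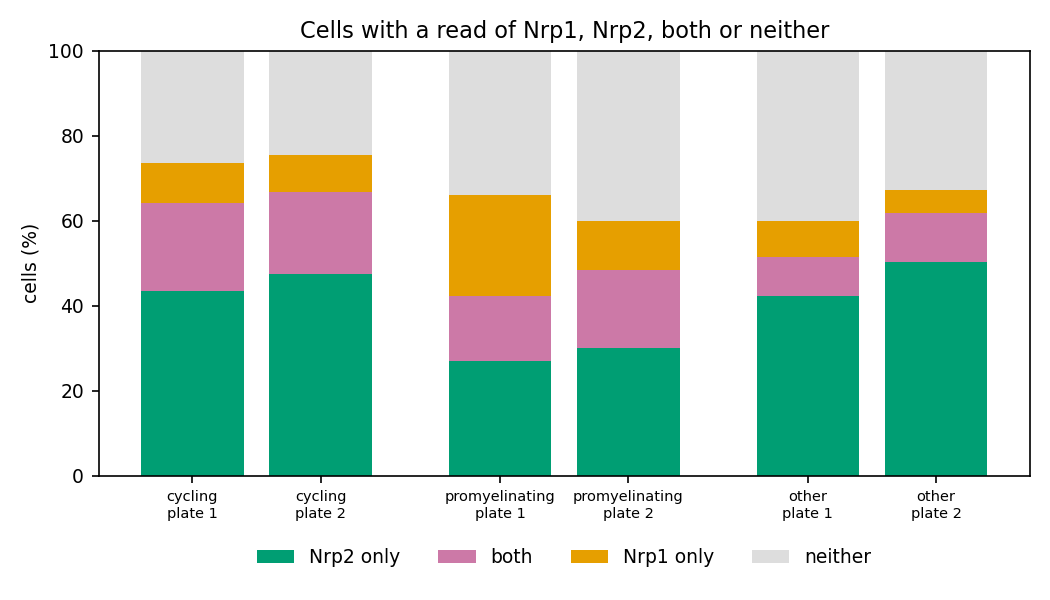
Cells of each class and plate by the neuropilins they had a read of, as a percentage of the cells, stacked to 100%. Cells with Nrp1 alone made up 23.7% and 11.7% of promyelinating cells against 5.53% to 9.43% in the remaining bars.

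Plxnb1 encodes a plexin that binds class 4 semaphorins, with Sema4d as its best known ligand, and activates RhoA. It lies on chromosome 9 (plus strand, chr9:109095389-109119917), overlapping Gm7628 on the opposite strand. Its level was 81.3 and 54.5 CPM in promyelinating cells, 7.84 and 18.4 CPM in other cells and 0.611 and 8.90 CPM in cycling cells. No promyelinating sum overlapped another class, and the cycling sums rested on 1 cell of plate 1 and 3 cells of plate 2. A read was found in 37.3% and 33.3% of promyelinating, 11.4% and 6.91% of other and 1.89% and 5.26% of cycling cells, and thinning to 50000 reads left 30.5% and 29.3%, 6.86% and 4.19%, and 1.92% and 3.51%. Promyelinating against other cells gave a log2 fold change of 2.46 (95% interval 0.00 to 4.92, edgeR adjusted p = 0.447). Cycling against promyelinating cells gave -3.81 (95% interval -6.43 to -1.20, adjusted p = 0.103). Without cycling plate 2 the adjusted p was 0.0219, in a fit whose lone cycling sum holds 29 reads of 1 cell and is assumed to vary like the other classes, and without any other single sum it was 0.115 to 0.254. Sema4d itself was at 1.93 CPM or less in every sum.

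**Figure D4:**
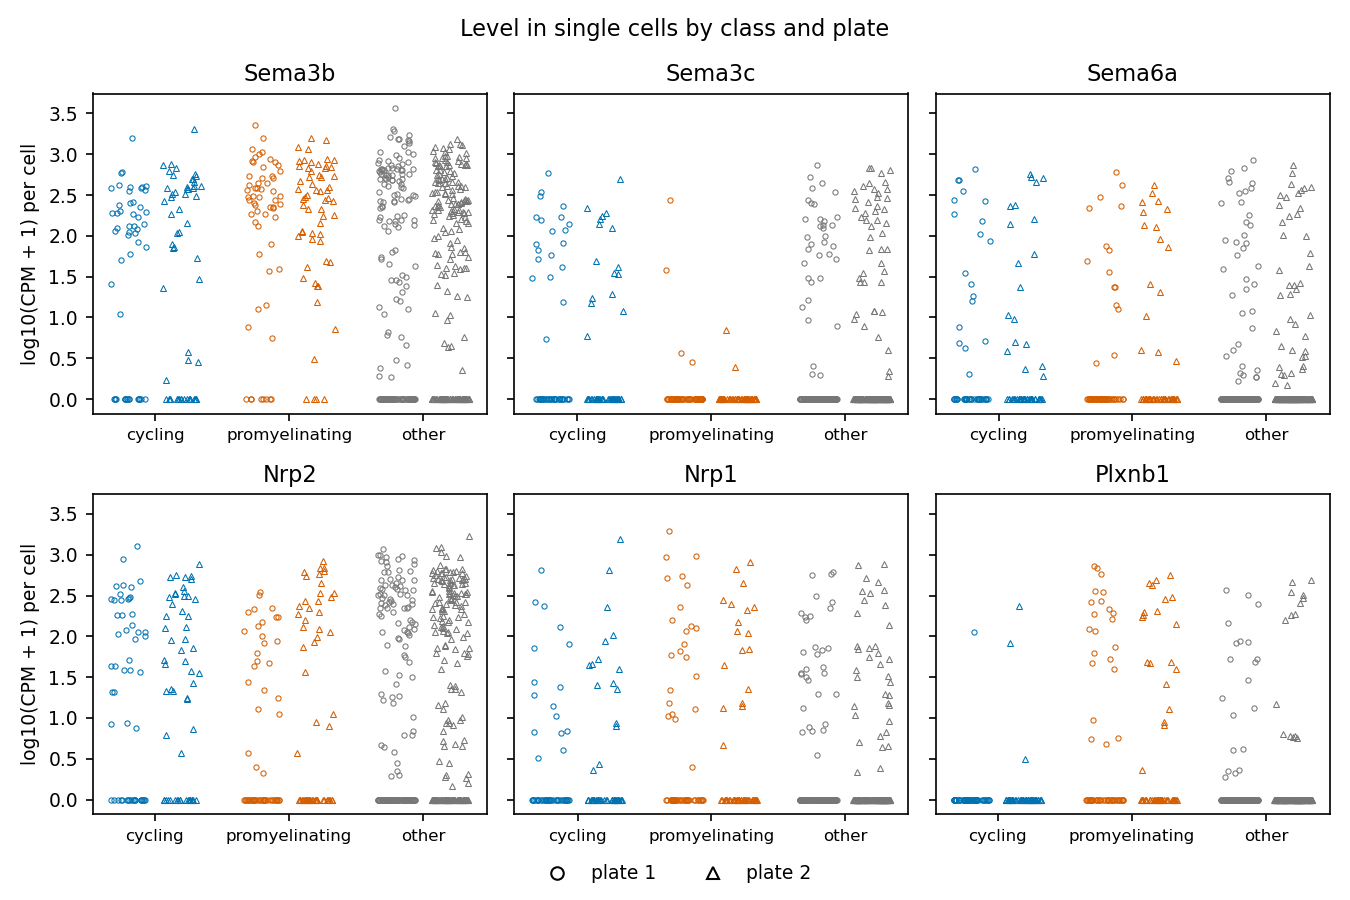
Level of 6 members in each kept cell, as log10(CPM + 1), by class, with circles for plate 1 and triangles for plate 2. Cells without a read lie at 0. For Sema3c, 6 promyelinating cells lie above 0, and for Plxnb1, 4 cycling cells do.

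Counting all members, 0 of the 9 tested passed an adjusted p of 0.05 in edgeR without a plate term in any of the comparisons, and Sema4f could not be tested. Among all genes, 1.01% passed for cycling against other cells, 1.79% for promyelinating against other cells and 5.95% for cycling against promyelinating cells. At an unadjusted p under 0.05 there were 1 member (Sema5a), 5 members (Sema3b, Sema3c, Sema5a, Nrp1 and Plxnb1) and 3 members (Sema3b, Sema3c and Plxnb1), against 10.1%, 11.2% and 20.1% of all genes. Without Sema5a, which had to differ from other cells once it passed the filter, these were 0, 4 and 3 members. DESeq2, which called 6.03%, 7.59% and 17.1% of all genes, called 1 (Sema5a), 4 (Sema3b, Sema3c, Sema5a and Nrp1) and 4 members (Sema3b, Sema3c, Sema3e and Plxnb1), or 0, 3 and 4 without Sema5a. With limma, which called 1.75%, 2.85% and 10.1% of all genes, 0, 0 and 3 members passed, the latter again Sema3b, Sema3c and Plxnb1. The block on the plate, with 1.17%, 2.22% and 6.66% of all genes, called 0, 0 and 2 members (Sema3b and Sema3c). The classes were drawn from the same reads that were then compared. The p-values rest on a spread between 2 plates that is pooled over the classes and estimated in part from other genes. In simulated sums the edgeR fit called 5% of the 2-fold and 34% of the 4-fold changes between promyelinating and other cells. A missing call therefore does not show equal levels.

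**Figure D5:**
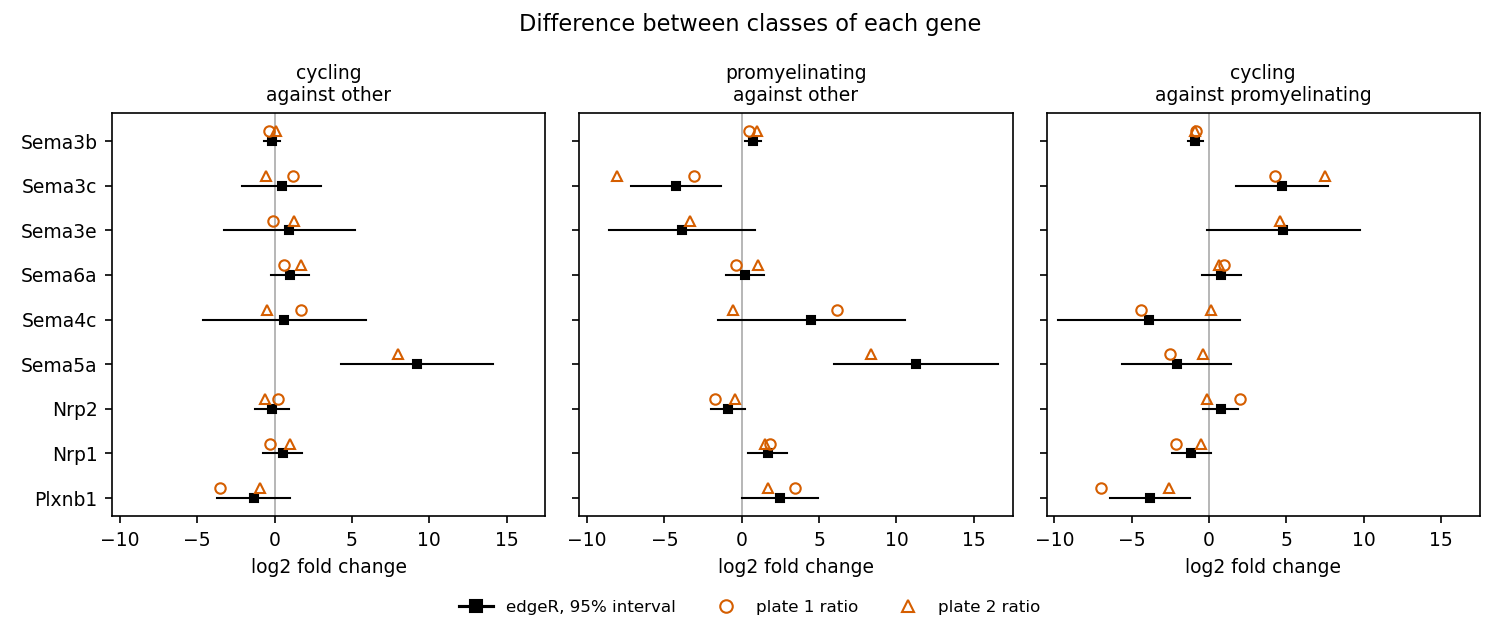
Log2 fold change of each tested member in the 3 comparisons, with the edgeR estimate and its 95% interval in black and the ratio on each plate, after the same TMM scaling of the sums, in orange. Plate ratios against a sum of 0 reads are left out (Sema5a on plate 1 against other cells and Sema3e on plate 1 with promyelinating cells), and no member passed the adjusted threshold without a plate term.

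Reads of a member ligand and of a member receptor were often found in the same cell. Sema3b and Nrp2 were both found in 104 of 287 cells of plate 1 and 139 of 334 cells of plate 2 (36.2% and 41.6%). Among cells with a Sema3b read 53.1% and 59.9% had Nrp2, and among cells without it 49.5% and 60.8%, a difference that had another sign on each plate. Thinned to 50000 reads, these shares were 46.7% and 53.1% with Sema3b and 41.3% and 46.2% without it. Sema3b and Plxnb1 met in 32.2% and 30.0% of promyelinating cells, compared with 0% and 3.51% of cycling and 7.43% and 4.61% of other cells. Within the promyelinating class, 37.3% and 32.1% of cells with Sema3b had Plxnb1, against 37.5% and 50% of the few without it. Plxnb1 was thus not more frequent in promyelinating cells with a Sema3b read. Sema3c and Nrp2 met in 37 and 41 cells in all, of which 2 and 0 were promyelinating.

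Correlations of members with single genes over the 621 cells were weak and are given as a description only. Of 5248 genes found in at least 20% of cells, Sema3b was most like Emid1 (r = 0.244), Pmp22 (0.239) and Ncmap (0.233), and Sema3c was most like Scn7a (0.274), Emp1 (0.230) and Cavin1 (0.223). Nrp1 was closest to Fgf1 (0.1996), Zdhhc17 (0.198) and Pmp2 (0.194), Nrp2 to Prss23 (0.228), Ddah2 (0.207) and Zfp36 (0.205), and Sema6a to Slc39a10 (0.167), Mfap1a (0.146) and Ubxn11 (0.145). The points share their plates, their depth and their classes.

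Lists of the wider pathway were set beside the members. In promyelinating against other cells the median log2 fold change was 0.45 for the 6 tested ligands and 1.68 for the 3 receptors, compared with 1.23 for the other semaphorins, -0.47 for the other plexins, -0.40 for partners of neuropilins and plexins, -0.35 for downstream effectors, -1.03 for other guidance families and -0.07 for all genes. In cycling against other cells these medians were 0.79, -0.15, -0.36, -1.27, 0.16, -0.27 and -0.78, with -0.07 for all genes, and in cycling against promyelinating cells they were -0.03, -1.15, -0.69, -0.73, 0.63, 0.08 and 0.08, with 0.02 for all genes. Setting genes without a read in a class to the bound that 3 reads allow moved 1 of these medians, that of the effectors in the last comparison, to 0.12. The ligand medians include Sema5a, and those of the other semaphorins include Sema6c. Both genes passed the filter on low counts only through sums in which they are high. In promyelinating cells the ligand Sema4c rests mostly on 1 cell. Genes without a read in 1 of the compared classes also entered the medians of further lists. They were at most 2 of 7 plexins, 1 of 12 partners, 1 of 25 effectors and 4 of 14 guidance genes. No difference between classes is therefore read from the medians of any of these lists.

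Among the 13 remaining semaphorins, of which 10 were tested, 1 changed, in the comparisons in which 1.79% and 5.95% of all genes passed. Sema6d, a transmembrane class 6 semaphorin that binds Plxna1, was at 425 and 306 CPM in promyelinating cells, 117 and 132 CPM in other cells and 119 and 134 CPM in cycling cells. Both promyelinating sums exceeded the other classes by more than the spread between plates. It rose by 1.63 ± 0.26 on the log2 scale in promyelinating against other cells (SE, n = 2 plates, edgeR adjusted p = 0.0168), and cycling against promyelinating cells gave -1.48 ± 0.26 (adjusted p = 0.0122). The first call was lost without promyelinating plate 1 (adjusted p = 0.112), other plate 1 (0.142) or other plate 2 (0.114), and the second without cycling plate 1 (0.0700), cycling plate 2 (0.0548) or promyelinating plate 1 (0.0893). Of the reads of all 20 semaphorins, Sema6d took 42.6% and 37.7% in promyelinating cells, 20.3% and 26.4% in other cells and 23.5% and 25.8% in cycling cells. Sema3b took 39.7% and 51.5%, 50.9% and 45.4%, and 40.6% and 43.0% of them, which overlapped between promyelinating and other cells.

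Some class 3 genes of the same chromosome had unlike levels. Sema3f, on the same strand as Sema3b and near it (chr9:107681500-107710475), was at 0.697 CPM per kb or less in every sum, where Sema3b had at least 43.0 CPM per kb. On chromosome 5, Sema3d (chr5:12383385-12588948) and Sema3a (chr5:13125414-13602565) precede Sema3e (chr5:14025276-14256689) and Sema3c, and neither exceeded 0.0441 CPM per kb in a sum.

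Of the 8 remaining plexins, 7 were tested. Plxna1, a receptor of Sema6d and a partner of neuropilins, was at 25.3 and 55.005 CPM in promyelinating cells, 2.46 and 1.71 CPM in cycling cells and 9.90 and 13.5 CPM in other cells. Cycling against promyelinating cells gave -4.204 ± 0.84 on the log2 scale (edgeR adjusted p = 0.0239), which was lost without cycling plate 1 (0.0671), cycling plate 2 (0.0819), promyelinating plate 2 (0.139) or other plate 2 (0.0512). Plxna4 had no read in promyelinating cells against 0.885 and 9.36 CPM in cycling cells. It passed in the same comparison at an edgeR adjusted p of 0.0495, which came to 0.0691 with the plate as a block. Without a promyelinating read it passed the filter on low counts only through the remaining classes, so this test is no support for a difference. Plxna4 is named although it fell under the 10 CPM that the rule for named genes asks for. In the comparisons with other cells 0 plexins passed in edgeR, while 2 and 2 had an unadjusted p under 0.05, at which 10.1% and 11.2% of all genes passed.

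Neuropilins and plexins also work with adhesion molecules and growth factor receptors. Of 19 such partners, 12 were tested, and 2 fell in promyelinating cells compared with other cells, where 1.79% of all genes passed. L1cam, an adhesion molecule that forms a complex with Nrp1, was at 0.978 and 1.92 CPM in promyelinating cells against 39.4 and 64.5 CPM in other and 57.9 and 104 CPM in cycling cells. Its close homolog Chl1 was at 9.88 and 11.9 CPM against 199 and 126 CPM and 243 and 140 CPM. The log2 fold changes of promyelinating against other cells were -5.08 ± 0.64 for L1cam (edgeR adjusted p = 0.00634) and -3.82 ± 0.43 for Chl1 (adjusted p = 0.00355). Both were also higher in cycling than in promyelinating cells (5.84 ± 0.67 and 4.195 ± 0.44 on the log2 scale, adjusted p = 0.00161 and 0.00113). The exons of L1cam overlap Arhgap4 on the same strand. Both L1cam and Chl1 are also among 8 genes listed as markers of immature SCs, for which the paper uses L1cam. That list summed to 338 and 425 CPM in promyelinating, 950 and 791 CPM in other and 1113 and 1054 CPM in cycling cells. Nrcam, an adhesion molecule of the same family that pairs with Nrp2, stood the other way at 108 and 97.4 CPM in promyelinating, 22.01 and 9.19 CPM in cycling and 25.8 and 35.1 CPM in other cells. Cycling against promyelinating cells gave -2.65 ± 0.56 (adjusted p = 0.0292), and the call was lost without cycling plate 2 (0.0722), promyelinating plate 1 (0.120), promyelinating plate 2 (0.0952) or other plate 2 (0.0501).

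Among the 27 downstream effectors, 25 were tested. Fyn, a Src-family kinase that acts below semaphorin receptors, was at 442 and 540 CPM in promyelinating cells, 162 and 147 CPM in other cells and 77.4 and 73.2 CPM in cycling cells, and the 3 classes did not overlap. It rose by 1.75 ± 0.23 on the log2 scale in promyelinating against other cells (edgeR adjusted p = 0.00801), and cycling against promyelinating cells gave -2.65 ± 0.24 (adjusted p = 0.000513). The first call was lost without promyelinating plate 2 (0.0613), other plate 1 (0.0524) or other plate 2 (0.0856). Mical3, of the MICAL family of actin-acting monooxygenases, was at 143 and 171 CPM in promyelinating and 37.7 and 28.8 CPM in cycling cells (-2.18 ± 0.34, adjusted p = 0.00813), and without promyelinating plate 2 its adjusted p was 0.0526. In cycling against other cells 0 effectors passed in edgeR and 2 of 25 had an unadjusted p under 0.05, near the 10.1% of all genes.

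A list of 20 genes of other guidance families, 14 of them tested, was set beside these lists. In edgeR 1 passed for cycling against other cells, 1 for promyelinating against other cells and 2 for cycling against promyelinating cells. Among all genes 1.01%, 1.79% and 5.95% passed. In the last comparison the counts of the earlier lists were 2 of 7 plexins, 3 of 12 partners and 2 of 25 effectors. Epha5, a receptor of A-type ephrins, was at 37.7 and 53.3 CPM in promyelinating cells against 295 and 302 CPM in other cells (-2.64 ± 0.30, edgeR adjusted p = 0.00355) and 144 and 202 CPM in cycling cells, which were higher than promyelinating cells (1.98 ± 0.29, adjusted p = 0.00594). Ephb6, an Eph receptor without kinase activity, was at 40.8 and 53.4 CPM in promyelinating and 10.3 and 6.69 CPM in other cells, and cycling cells had 1 cell with a read. It was lower in cycling than in promyelinating cells at an edgeR adjusted p of 0.00346. Ephb6 passed the filter on low counts only through the promyelinating and other sums, so its tests with cycling cells are no support for a difference. Against other cells, where it fell under the 10 CPM of the rule for named genes, its adjusted p was 0.0282, and 5 of the 6 fits that left out 1 sum put it between 0.0617 and 0.0870.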

How the data were processed

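Libraries of single SCs were made with the Smart-seq2 protocol. By the submitters' processing notes the authors used STAR 2.6.1c, featureCounts and the build GRCm38.p5, whereas the methods of the study name a human assembly; all gene IDs are mouse IDs. For each gene and well the authors deposited an unscaled read count, without molecular identifiers or normalization, and strand use is not stated. Symbols, positions and exon lengths came from GENCODE M21 (25587 of 25700 IDs matched, and 16 shared a symbol). All columns had a sample (0 without).

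Wells with at least 1500 genes were kept, setting aside 122 of 743. Single cells were sorted into wells, no doublet caller was run, and no 2 wells were identical (0 pairs). Counts were summed per class and plate into 6 sums (45073128 to 172878954 reads), which entered edgeR 4.0.16 (TMM, filterByExpr, robust glmQLFit and glmQLFTest, no plate term, Benjamini-Hochberg adjustment over all genes). Intervals are 95% intervals from the t distribution, and an SE is the estimate divided by the root of its F statistic. CPM are reads scaled to 1000000 per sum. Samples of the same plate share mice, and their deviations from the class means correlated (r = 0.141, 0.235 and 0.213 over 3414 genes), so the plate was also fitted as a block. The other alternatives were DESeq2 1.42.0, limma 3.58.1 on log2(mean CPM + 1), no filter, thinning to 50000 reads per cell (5 cells left out), other minimums of genes and class thresholds, and leaving out single sums or plates. A fit without the cell of most reads of each gene was added after seeing the data. The edgeR fit was also run on simulated sums with 200 changed genes among 13292, for promyelinating against other cells. It called 45 genes, of which 39 were changed. Of the 2-fold changes 5% were called, and of the 4-fold changes 34%. Some genes are not reported here.

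The members, classes and gene lists were chosen with earlier results of these data known. Named pathway genes are those past an adjusted p of 0.05, in the same direction on both plates and with at least 10 CPM in the higher class, up to 6 per list and comparison.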

Additional observations from a re-analysis of the deposited data

Results flagged for a closer look

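The 122 wells with fewer than 1500 detected genes entered no comparison, yet 7 of the members had a level there above the 0.143 CPM that 3 reads would give. Over all these wells together Sema3b was at 190.9 CPM (11 wells with a read), Nrp2 at 184 CPM (12 wells), Plxnb1 at 71.1 CPM (5 wells), Sema6a at 40.2 CPM (5 wells) and Sema3c at 27.3 CPM (4 wells). Sema4c at 0.334 CPM and Nrp1 at 0.191 CPM came from 1 well each. The wells had a median of 284.5 genes.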

How the results depend on the processing

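The number of called genes changed with the tool and the filter. For cycling against other cells, promyelinating against other cells and cycling against promyelinating cells in that order, 134, 238 and 791 genes passed, and DESeq2 gave 801, 1009 and 2277, no filter on low counts 317, 521 and 1290, limma 232, 379 and 1343, thinning 250 and 413 for the comparisons with other cells, and leaving out single sums 60 to 146, 120 to 221 and 445 to 630. The plate as a replicate block gave 156, 295 and 885. Against 0 members called, DESeq2 called 1, 4 and 4, no filter 1, 1 and 2, thinning 2 in each of the later comparisons, limma 3, the block 2, a minimum of 2500 genes 1 and a class threshold of 20 CPM 1 in the last comparison, and the fit without the top cell of each gene 1 and 3 in the later comparisons. Leaving out single sums gave 0 to 1 in these. The block changed no other call of a member, and of the pathway genes it changed that of Plxna4. Of 426 fits of members under an alternative, 378 kept their direction and side of the threshold, 32 passed it, and 16 changed sign.

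In cycling against other cells the sign changed for Sema3c with the block (-0.0016), and for Nrp1 (-0.010) and Nrp2 (0.0021) at 2500 genes. The ranges without single sums or plates were -0.37 to 0.10 for Sema3b, -0.56 to 1.22 for Sema3c, -0.78 to 1.72 for Sema3e, -0.46 to 1.72 for Sema4c, -0.37 to 1.08 for Nrp1 and -0.60 to 0.25 for Nrp2. In promyelinating against other cells the sign changed for Sema6a at a threshold of 100 CPM (-0.055) and for Sema4c without its top cell (-0.34), with ranges of -0.36 to 1.05 and -0.57 to 6.14. In cycling against promyelinating cells it changed for Sema4c without its top cell (0.85), with a range of -4.85 to 0.73, and for Sema5a with a range of -2.93 to 0.17. All these are log2 fold changes, and apart from the top cells of Sema4c the cause was not tested. Sema3e, Sema4c and Sema5a were read in 36, 36 and 13 cells, which limits what their sums can show.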

Other observations

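Beside the members, a pair of membrane-bound semaphorins was found mainly in promyelinating cells. They were chosen after their values were seen, and no support is drawn from a test of them. Sema6c had reads in 12 of 59 and 15 of 60 promyelinating cells, in 2 other cells of plate 1, in 0 other cells of plate 2 and in no cycling cell, at 11.8 and 10.99 CPM against 0.175 and 0 CPM in other cells, so that it passed the filter on low counts only through the promyelinating sums. Sema4g was at 56.4 and 27.2 CPM in promyelinating, 6.49 and 8.62 CPM in other and 0 and 3.59 CPM in cycling cells. It was read in 23 and 15 promyelinating cells, compared with 3 and 14 of the more numerous other cells.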
